A study of Rattus norvegicus with 4 samples.

Results

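Altogether 10 genes of epidermal growth factor (EGF) receptor signalling were followed in ROE2 cells over 9 days of culture at 37 °C. They are the receptor gene Egfr, the ligand genes Areg, Ereg, Hbegf and Tgfa, the transcription factor genes Junb and Fosl1, and the feedback genes Dusp5, Dusp6 and Spry2. All probe sets that the platform annotation assigns to these symbols were taken, which gave 15 probe sets for the 10 genes, out of 14218 genes with 1 symbol on the array. ROE2 is an immortalized epithelial line derived from the tongue of a transgenic rat fetus of the Wistar strain that was 18 days old and carried the tsSV40 large T-antigen gene [pSVtsA58ori(-)-2]. This viral protein, which drives proliferation, is temperature-sensitive. All 4 groups carried this gene and were grown on collagen type I in medium with 2% serum, insulin, transferrin, ethanolamine, selenite and 10 ng/ml EGF. Cells were held at 33 °C for 24 h and then moved to 37 °C, and RNA was taken on day 0 (the control) and on days 3, 6 and 9 after that shift. Each day was measured on 1 array, so there were no replicates and no test was run. The line is a single line from 1 fetus, and only the day 0 cells had not been kept at 37 °C. Temperature, time in culture and the individual array therefore cannot be told apart.

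EGF receptor ligands are made as membrane-bound precursors that are cut from the cell surface by metalloproteases and then bind the receptor on the same or neighbouring cells. The active receptor signals through RAS to the kinase ERK, which raises transcription of immediate early genes, among them subunits of the dimeric transcription factor AP-1. The same route raises genes that damp it, such as phosphatases that strip ERK of its activating phosphates and Sprouty proteins that act between the receptor and ERK. In stratified epithelium this signalling supports growth and migration of basal cells and is remodelled as cells differentiate. The medium recipe of all 4 groups held added EGF, and how much of it reached the receptor on each day was not measured.

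The deposited values are on the log2 scale after RMA normalisation, with array medians of 5.22 to 5.24. A difference of 1 is a 2-fold difference, and a gene was called higher or lower when 2 arrays differed by at least that much, among the 8802 genes that reached 6 on any array. All 10 genes passed this filter. A gene was represented by its brightest probe set, and the others are given beside it. With 1 array per day the sizes have no replicate check. To see how far probe sets of a gene part, differences from day 0 were compared between both probe sets of 1624 genes that have 2. The median gap was 0.18, 0.40 and 0.36 on days 3, 6 and 9. Both probe sets are read on the same arrays, so this gap does not measure the spread between arrays or cultures. The hybridisation spike-ins, added in a fixed amount, were higher than on day 0 by a median of 0.14, 0.39 and 0.63, and centring on them lowers every difference by these amounts. The median of the housekeeping genes differed from day 0 by -0.16, -0.27 and -0.18, and centring on it raises every difference. All 9 epithelial markers measured, Krt5, Krt14, Cdh1, Epcam and Tp63 among them, read between 9.68 and 14.15. Among them Krt13, a keratin of differentiating cells of the oral lining, read 9.68 on day 0 and 12.23, 13.55 and 13.91 later, so that it was 5.86-fold, 14.7-fold and 18.9-fold higher. Jup, which encodes the junction protein plakoglobin, was 2.01-fold and 2.19-fold higher on days 6 and 9, but short of 2-fold under spike-in centring. These 2 markers moved over the same days as the genes below, and their part in the results was not tested. Of the markers of other cell types, all 7 fibroblast, 5 endothelial, 6 skeletal muscle and 4 Schwann cell or melanocyte genes measured stayed below 6. Of 5 leukocyte genes, Cd68, which encodes a lysosomal protein abundant in macrophages, read 5.32 on day 0 and 6.54, 6.27 and 6.18 later. The other 4, Ptprc, Csf1r, Cd3e and Itgam, read between 2.79 and 3.67, below the brightest bacterial control. In bulk RNA, fewer cells of a kind and less RNA per cell cannot be told apart.

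Among the 10 genes, 6 were 2-fold or more apart from day 0 on at least 1 later day, as were 1582 of all 8802 genes tested. Ereg, Tgfa and Dusp5 were higher and Areg was lower from day 3, Junb was higher and Spry2 lower from day 6, and Egfr, Hbegf, Fosl1 and Dusp6 stayed within 2-fold of day 0 in their brightest probe set. On day 3, 3 of 10 were higher and 1 lower, beside 4.31% and 2.15% of all genes tested. On day 6, 4 were higher and 2 lower, beside 5.74% and 8.08% of all genes, and the day 9 counts were also 4 and 2, beside 5.57% and 6.25%. The median difference of the 10 genes was 0.35, 0.43 and 0.27 on the 3 days, against -0.05, -0.18 and -0.14 over all genes tested. Because the 10 genes were chosen with earlier results of these data known, these counts and medians are descriptive only.

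**Figure D1:**
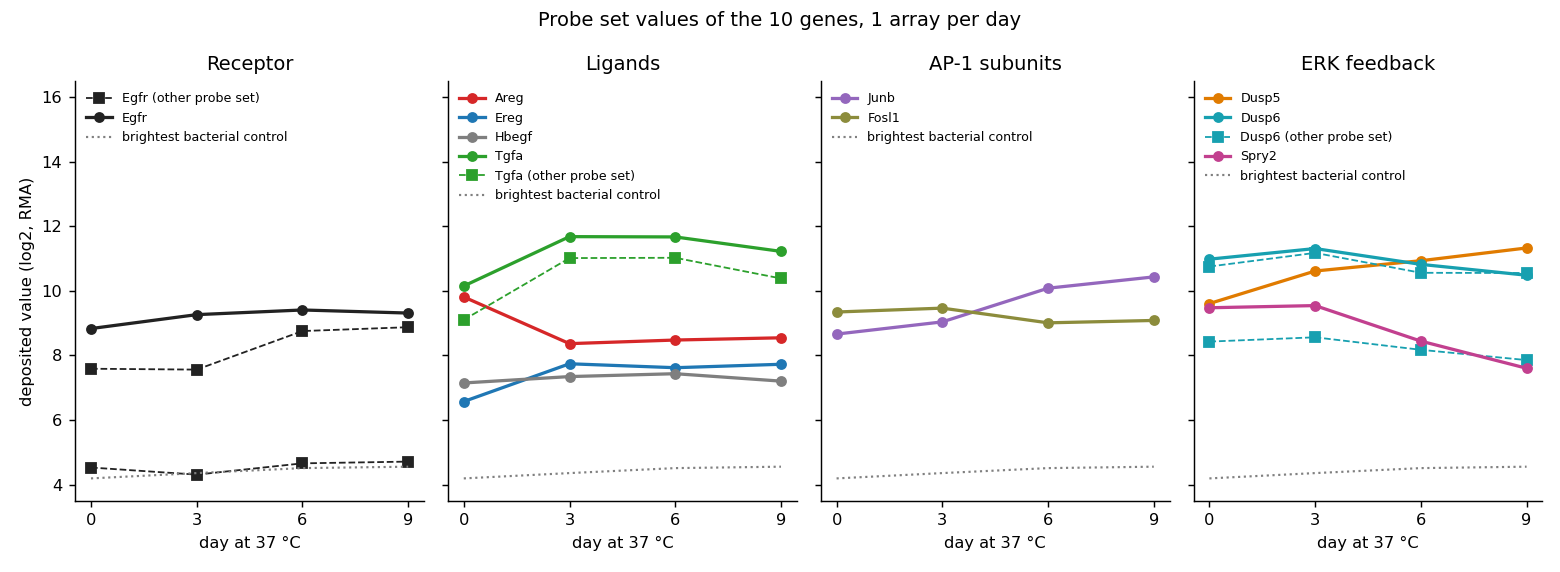
Deposited log2 values (y axis) of all 15 probe sets by day at 37 °C (x axis), 1 array per day, with solid lines for the brightest probe set of each gene, dashed lines for other probe sets and a dotted line for the brightest bacterial control probe set. Areg steps down and Tgfa and Ereg step up between days 0 and 3, while Junb climbs and Spry2 drops after day 3. The lowest Egfr line lies at the level of the brightest bacterial control.

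Of the ligands, Areg was the 1 that was lower. Areg encodes amphiregulin, a heparin-binding ligand and an autocrine growth factor of keratinocytes. It read 9.81 on day 0 and 8.37, 8.48 and 8.55 on days 3, 6 and 9. The day 0 array was the only high one, and the 3 later arrays were close together. Areg was thus 2.72-fold, 2.52-fold and 2.40-fold lower than on day 0, and on day 3 only 0.67% of all genes tested had a more negative difference. It stayed 2-fold or more lower on all 3 days under every scaling tried, with a range of -1.90 to -1.07.

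Ereg, the gene next to Areg in the RefSeq annotation of GRCr8 with 0 protein-coding genes between them, went the other way. Ereg encodes epiregulin, a ligand of EGFR and ERBB4. It read 6.57 on day 0 and 7.74, 7.62 and 7.73 on days 3, 6 and 9. Again the day 0 array stood apart from 3 similar later arrays, here on the low side. Ereg was 2.25-fold, 2.07-fold and 2.22-fold higher than on day 0. Under spike-in centring its differences were 1.03, 0.66 and 0.52, so that it no longer reached 2-fold on days 6 and 9.

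Tgfa, which encodes transforming growth factor alpha, the other classic autocrine ligand of keratinocytes, was higher too. Its brightest probe set read 10.15 on day 0 and 11.68, 11.67 and 11.22 on days 3, 6 and 9, and the other read 9.10, 11.02, 11.03 and 10.39. Both probe sets placed days 3 and 6 highest, day 9 next and day 0 lowest. The brightest was 2.89-fold, 2.87-fold and 2.10-fold higher than on day 0, and the other 3.76-fold, 3.79-fold and 2.43-fold. On day 3 only 1.62% of all genes had a larger difference than Tgfa. From day 6 to day 9 they differed by -0.45 and -0.64, short of 2-fold. Under spike-in centring the day 9 difference of the brightest was 0.44.

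Hbegf, which encodes heparin-binding EGF-like growth factor, a ligand raised in wounded epithelium, read 7.15, 7.35, 7.44 and 7.21 on days 0, 3, 6 and 9. Its largest difference from day 0 was 0.29, on day 6. That is smaller than the median gap of 0.40 between probe sets of a gene on that day, and its sign turned under spike-in centring (-0.10). The 4 ligand genes thus gave 2 that were higher, 1 that was lower and 1 within 2-fold of day 0 on each later day.

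The receptor gene gave different answers in its 3 probe sets. Egfr read 8.83, 9.26, 9.41 and 9.31 on days 0, 3, 6 and 9 in the brightest. The next read 7.59, 7.56, 8.76 and 8.88. The dimmest read 4.53, 4.31, 4.66 and 4.71, at or close to the brightest bacterial control, which read 4.19 to 4.56. The brightest probe set was highest on day 6 and at most 1.49-fold above day 0. The second was flat from day 0 to day 3 and then 2.25-fold (day 6) and 2.44-fold (day 9) above day 0. Their differences from day 0 parted by 0.59 on day 6 and 0.81 on day 9, beside a 90th percentile of 0.99 and 0.95 over genes with 2 probe sets. From day 3 to day 6 the brightest and the second parted by 1.05, past the 90th percentile of 0.86 for that interval. Whether Egfr reached 2-fold therefore depended on the probe set. Under spike-in centring the brightest was at -0.15 on day 9, so its sign turned as well.

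**Figure D2:**
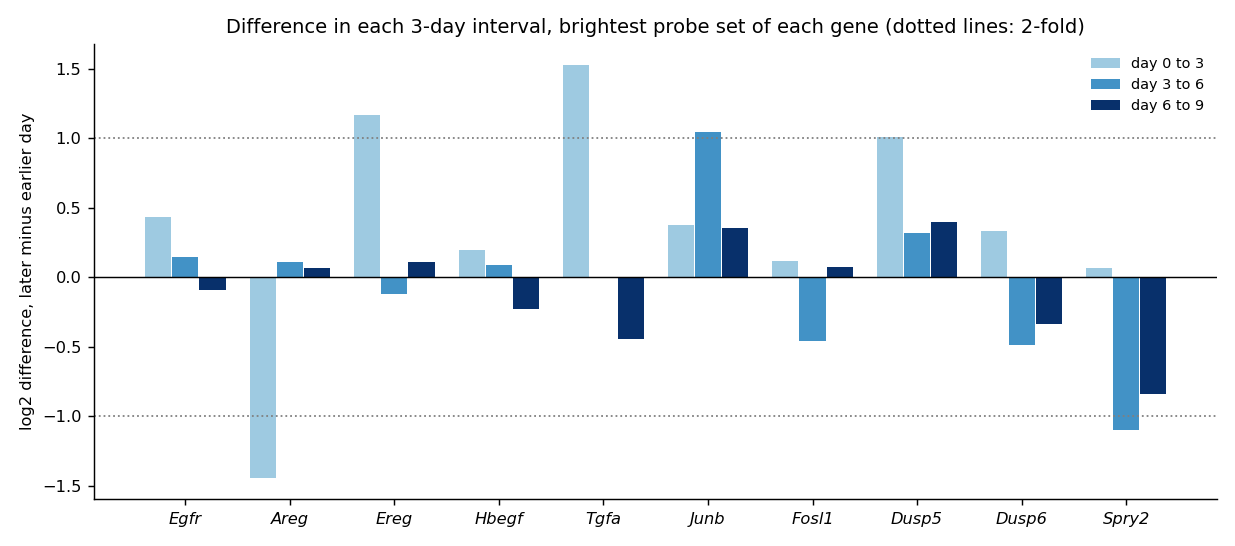
Log2 difference (y axis, later minus earlier day) over each 3-day interval for the brightest probe set of the 10 genes (x axis), with dotted lines at 2-fold. Areg, Ereg, Tgfa and Dusp5 pass the line between days 0 and 3, Junb and Spry2 between days 3 and 6, and no gene between days 6 and 9.

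Both AP-1 genes were measured by 1 probe set each, and they parted. Junb, whose product often opposes the growth-promoting action of JUN, read 8.66, 9.04, 10.08 and 10.43 on days 0, 3, 6 and 9. Days 0 and 3 were the low arrays and days 6 and 9 the high ones. Junb was 2.68-fold above day 0 on day 6 and 3.41-fold on day 9, where 1.62% of all genes had a larger difference. Between days 3 and 6 the difference was 1.04, or 0.79 under spike-in centring. By brightest probe sets, Junb was the 1 gene of the 10 that was higher in that interval, beside 0.829% of all genes tested. The second Egfr probe set was 1.19 higher in the same interval. Fosl1, which encodes FRA-1, an AP-1 subunit that ERK stabilises and that is linked to migration, read 9.35, 9.47, 9.01 and 9.09. Its largest difference from day 0 was -0.34, short of 2-fold.

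The ERK phosphatases also parted. Dusp5 encodes a nuclear phosphatase specific for ERK that ERK activity induces. It read 9.61, 10.62, 10.94 and 11.33 on days 0, 3, 6 and 9. Each array was higher than the one before it, and Dusp5 was 2.01-fold, 2.51-fold and 3.30-fold higher than on day 0. The day 3 difference of 1.01 lay just past 2-fold. Under spike-in centring it was 0.87, and the day 6 difference was 0.94, both short of 2-fold. On day 9 it was 1.72, or 1.09 under that centring, and 1.75% of all genes had a larger one.

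Dusp6 encodes the cytoplasmic counterpart, which also holds inactive ERK in the cytoplasm. Its brightest probe set read 10.98, 11.31, 10.82 and 10.49 on days 0, 3, 6 and 9. The others read 10.76, 11.18, 10.56 and 10.55, and 8.43, 8.56, 8.18 and 7.86. All 3 were highest on day 3 and lowest on day 9. Differences from day 0 ran from 0.13 to 0.42 on day 3 and from -0.57 to -0.20 on day 9, all short of 2-fold. Under spike-in centring the brightest reached -1.13 on day 9, past 2-fold.

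Spry2 had the widest range of the 10 genes. It encodes Sprouty2, an inhibitor of receptor tyrosine kinase signalling that is itself induced by it. Spry2 read 9.48 and 9.55 on days 0 and 3, then 8.44 and 7.60 on days 6 and 9. The first 2 arrays were alike and each of the next 2 was lower than the one before. Spry2 was 2.05-fold below day 0 on day 6 and 3.66-fold lower on day 9, where 0.77% of all genes had a more negative difference. The day 6 difference of -1.03 was just past 2-fold, and under 3 of the 4 other scalings it was short of it, between -0.96 and -0.77. The day 9 value lay between -2.51 and -1.69 under every scaling tried. Between days 3 and 6 it was the 1 gene of the 10 that was lower, at -1.10, beside 1.6% of all genes tested. It was just short of 2-fold with housekeeping or median-gene centring. Between days 6 and 9 its difference was -0.84, and 0 of the 10 genes were 2-fold apart in either direction, beside 0.25% of all genes higher and 0.591% lower.

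Sequence upstream of the start site was taken from the RefSeq table of GRCr8, which had windows for 9 of the 10 genes. For 7 of them the 250 bases before the start lay outside the annotated gene, and these were searched on both strands for 6 motifs. They were the cyclic AMP response element TGACGTCA, bound by CREB and ATF factors, the AP-1 site TGACTCA, the ETS core CCGGAA, the GC box GGGCGG, the TATA box TATAAA and the CArG box bound by serum response factor (SRF), which recruits ERK-regulated partners to immediate early genes. The windows of Areg, Dusp5 and Spry2 are shown because these genes moved in different ways and differ in the motifs they hold. They lie at chr14:17265642-17265891 on the minus strand, chr1:262543524-262543773 on the plus strand and chr15:89111927-89112176 on the minus strand, and run 5′ to 3′ with the last base just before the start site. Capitals mark all motif matches.
Areg: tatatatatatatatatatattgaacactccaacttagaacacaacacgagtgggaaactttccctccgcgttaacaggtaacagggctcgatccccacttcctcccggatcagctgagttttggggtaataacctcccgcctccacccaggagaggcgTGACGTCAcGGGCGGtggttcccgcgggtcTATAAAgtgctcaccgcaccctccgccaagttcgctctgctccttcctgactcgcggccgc
Dusp5: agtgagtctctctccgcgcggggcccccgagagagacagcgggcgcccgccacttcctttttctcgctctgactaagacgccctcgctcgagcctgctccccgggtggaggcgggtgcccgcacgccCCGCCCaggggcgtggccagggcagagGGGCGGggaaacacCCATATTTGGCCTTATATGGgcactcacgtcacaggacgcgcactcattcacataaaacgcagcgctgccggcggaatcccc
Spry2: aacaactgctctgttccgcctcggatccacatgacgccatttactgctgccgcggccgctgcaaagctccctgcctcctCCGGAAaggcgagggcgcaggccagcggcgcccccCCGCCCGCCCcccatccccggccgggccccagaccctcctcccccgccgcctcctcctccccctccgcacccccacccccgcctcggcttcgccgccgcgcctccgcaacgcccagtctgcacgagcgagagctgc
Areg, lower from day 3, holds 1 cyclic AMP response element from base -91 to -84, counted from the start site, followed by a GC box and a TATA box. Dusp5, higher from day 3, holds 2 CArG boxes end to end, from -82 to -73 and from -72 to -63, and 2 GC boxes. Spry2, lower from day 6, holds 1 ETS core from -171 to -166 and 2 overlapping GC boxes. The cyclic AMP response element was found in 1.59% of all 33469 windows of this length in the table, the CArG box in 1.5%, the ETS core in 12.6%, the GC box in 30.5% and the TATA box in 12.9%. Among the other windows searched, Junb held a TATA box, Egfr an ETS core and a GC box, Fosl1 a GC box and Hbegf none of the 6 motifs. The AP-1 site was in 0 of the 7 windows and in 4.05% of all windows. A match is a stretch of letters and does not show binding.

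**Figure D3:**
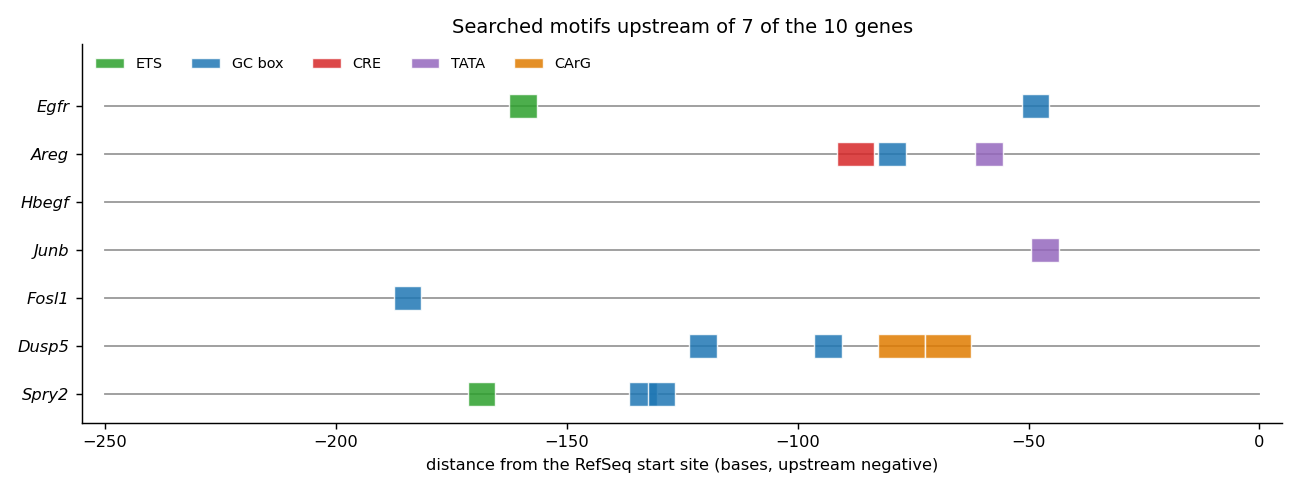
Motif matches (coloured blocks, to scale) in the 250 bases before the RefSeq start site of 7 genes, with the x axis in bases from the start. Dusp5 has 2 adjacent CArG boxes and Areg a cyclic AMP response element (CRE) beside a GC box, and no other of these windows holds either element.

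Places among all 8802 genes tested restate the calls for the called genes, since few genes pass 2-fold and these lie at the ends. On day 9, Junb, Dusp5, Ereg and Tgfa had 1.62%, 1.75%, 4.19% and 4.82% of all genes above them. Areg and Spry2 had 2.98% and 0.77% below them. Among the genes not called, Fosl1 and Hbegf lay in the middle, with 41.0% and 65.0% of genes below them, while Dusp6 had 24.6% and Egfr 85.2%. Spry2 had 62.7% of genes below it on day 3 and 7.51% on day 6.

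**Figure D4:**
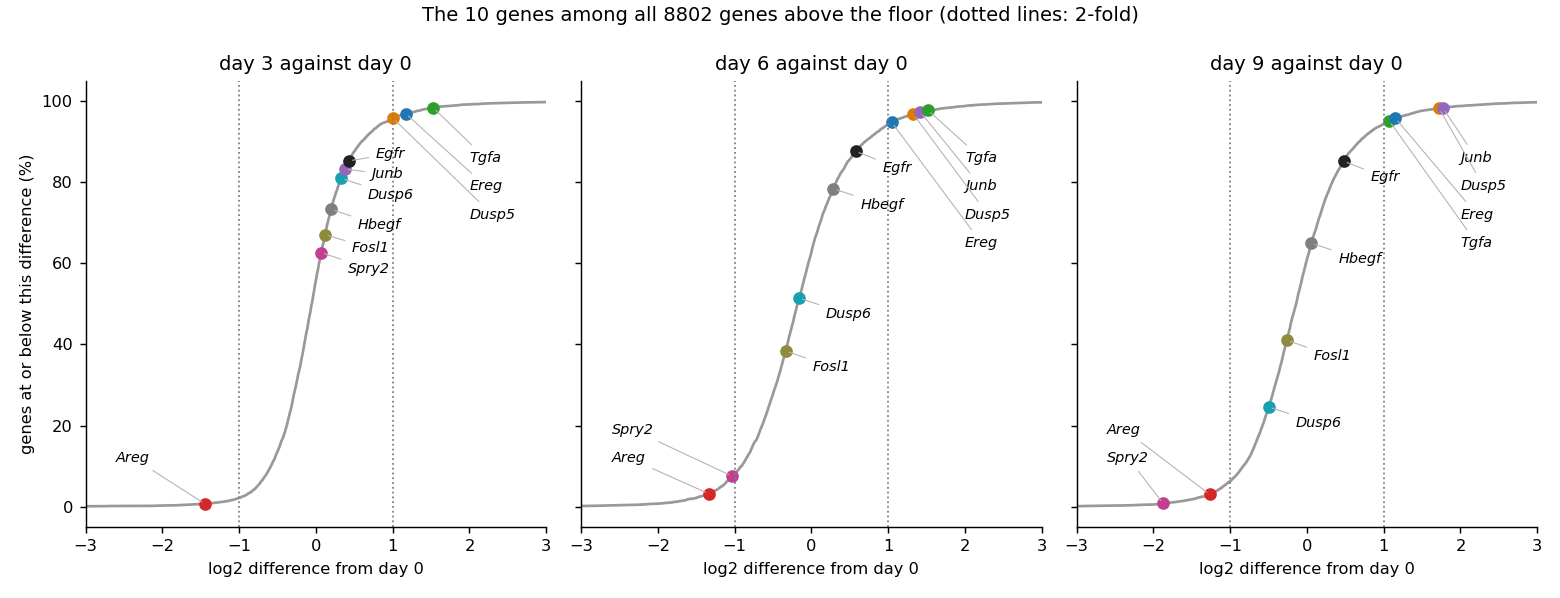
Cumulative share of the 8802 genes tested (y axis, percent) against log2 difference from day 0 (x axis) on days 3, 6 and 9, with the 10 genes as points and dotted lines at 2-fold. Junb and Spry2 sit inside the 2-fold lines on day 3 and outside them on days 6 and 9, whereas Areg, Ereg, Tgfa and Dusp5 are outside them on each day.

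By a rule of likeness, the root mean square distance between differences from day 0 on the 3 later days, 3 genes were named for each of the 3 with the widest range. Nrn1, Penk and Dab2 were nearest to Spry2, at distances of 0.14, 0.15 and 0.20 log2 units. Kdm5b, Hook3 and Herc1 were nearest to Junb, at 0.03, 0.10 and 0.14. Sptssa, Calml5 and C3h15orf48 were nearest to Dusp5, at 0.05, 0.08 and 0.10. The distance was taken over 3 differences from the same 4 arrays.

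The rest of the pathway was described from 8 lists of 100 genes in all, of which 84 were measured and 67 passed the filter. Of the 67, 6 were higher and 1 lower on day 3, 12 and 3 on day 6, and 8 and 4 on day 9. These are 8.96%, 17.9% and 11.9% higher and 1.49%, 4.48% and 5.97% lower, where all genes tested gave 4.31%, 5.74% and 5.57% higher and 2.15%, 8.08% and 6.25% lower. The lower shares were close to the background on days 3 and 9 and rest on few genes on each day. Nothing is read from them, nor from a count of 1 or 2 in the smaller lists. The split depended on the scaling: with spike-in centring 7 were higher and 10 lower on day 6, and 6 and 20 on day 9, where 1.98% of all genes were higher and 33.1% lower. Their median difference was 0.18, 0.11 and 0.07. At the receptor level, Erbb2, the co-receptor that binds no ligand, read 7.84, 8.49, 8.98 and 8.96 on days 0, 3, 6 and 9 and was 2.18-fold higher on day 9, a log2 difference of 1.12 that was 0.49 under spike-in centring. Erbb3 differed by 0.92 (day 6) and 0.70 (day 9) and reached 6 on those arrays alone, and Erbb4 stayed below the filter. Of the other ligands only Nrg1 passed the filter, at -0.68 on day 9 (-1.31 under spike-in centring), while Egf, Btc, Nrg2 and Nrg4 were below it. Of 4 genes of ligand shedding, 0 were 2-fold apart from day 0 on any day, and of all 8802 genes tested 7220 were not either. Adam17, the main sheddase of these ligands, was at 0.89, Rhbdf2 at 0.41 and Adam10 at 0.22 on day 9. Adam17 passed 2-fold, at 1.07, with housekeeping centring alone among the scalings.

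Negative regulators of the receptor differed in both directions. Errfi1, which encodes MIG6, a direct inhibitor of the receptor kinase, read 9.06 on day 0 and 10.73, 10.92 and 10.70 later, and was 3.18-fold, 3.64-fold and 3.13-fold higher. Socs3, which encodes a cytokine signalling inhibitor, read 4.55, 5.07, 6.29 and 6.36, and on days 6 and 9 its log2 difference was 1.74 and 1.82. It reached 6 only on those 2 arrays, and with dim values raised to 6 the differences were 0.29 and 0.36, so its count as higher rests on values below the filter. Lrig1, whose product promotes receptor degradation, was 2.97-fold lower on day 6 and at -0.87 on day 9. Of the 8 genes in this list, 1, 2 and 2 were higher on days 3, 6 and 9, beside 4.31%, 5.74% and 5.57% of all genes. On the same days 0, 1 and 0 were lower, beside 2.15%, 8.08% and 6.25%. Under spike-in centring 2 were lower on day 6 and 2 on day 9, beside 21.6% and 33.1% of all genes. In the core cascade from adaptor to kinase, 0 of 13 genes were 2-fold apart from day 0 on any day. Of all 8802 genes tested, 7220 were likewise within 2-fold of day 0 on each day. Gab1 was at 0.68, Rras at -0.58 and Nras at -0.50 on day 9. The count of 0 moved with the scaling. Under spike-in centring 3 were lower on day 9, among them Rras at -1.21 and Nras at -1.14, where 33.1% of all genes were lower. With housekeeping centring 2 were higher on day 3, beside 5.65% of all genes. With housekeeping or median-gene centring 2 were higher on day 6, beside 9.4% and 7.82% of all genes. The other 7 genes of that list were not analysed here.

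The immediate early genes, 14 of them above the filter, held 4, 7 and 4 that were higher on days 3, 6 and 9 and 0 that were lower, beside 4.31%, 5.74% and 5.57% of all genes higher. Their median difference was 0.66, 0.91 and 0.59, and 0.52, 0.52 and -0.04 under spike-in centring. With that centring 3, 4 and 3 were higher, beside 3.23%, 2.85% and 1.98% of all genes, and 0, 1 and 1 lower, beside 3.43%, 21.6% and 33.1%. Fos, the partner of JUN proteins in AP-1, read 6.45, 8.03, 8.72 and 8.06 on days 0, 3, 6 and 9. Fosl2, which encodes the FRA-2 subunit, read 6.89, 8.38, 9.01 and 8.80. Fos was thus 4.84-fold and Fosl2 4.33-fold higher on day 6, where Fosl1 was at -0.34. The stress-responsive factor gene Atf3 was 4.62-fold higher on day 6, and Zfp36, which encodes an mRNA decay factor, was 3.84-fold higher on day 9. Jun, Egr1 and Egr2 were 1.01, 1.14 and 1.10 higher on day 6 and short of 2-fold on day 9, and Egr1 was 1.07 higher on day 3. Under spike-in centring all 3 were short of 2-fold on day 6, at 0.62, 0.75 and 0.72. Egr2 read 5.04, 5.75, 6.14 and 5.61 and so passed the filter only through day 6, and with dim values raised to 6 the day 6 count was 6. The other probe sets of Jun differed by 0.24 and 0.94 on day 6.

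Of 9 other ERK feedback genes, 1 was higher on each of days 3, 6 and 9, beside 4.31%, 5.74% and 5.57% of all genes. On these days 0, 1 and 2 were lower, beside 2.15%, 8.08% and 6.25%. Dusp1, which encodes a nuclear phosphatase of several MAP kinases, read 7.63, 9.18, 9.69 and 9.39 and was 2.94-fold, 4.18-fold and 3.38-fold higher on days 3, 6 and 9. Dusp9 was 2.77-fold lower on day 6 and 2.04-fold on day 9, and Dusp10, whose product acts on JNK and p38, was 2.05-fold lower on day 9. Dusp9 read 5.59 on day 6 and Dusp10 5.95 on day 9, so these 2 differences rest in part on values below 6. Both kept the day 9 call under spike-in centring only, where 4 of the 9 were lower, beside 33.1% of all genes. Both lost it with housekeeping centring (-0.85 each), median-gene centring (-0.92 and -0.93) and quantile normalization (-0.94 each). Of the 16 ETS factors and later ERK targets, 0, 1 and 0 were higher on days 3, 6 and 9, beside 4.31%, 5.74% and 5.57% of all genes. On the same days 1, 1 and 2 were lower, beside 2.15%, 8.08% and 6.25%. Under spike-in centring 0 were higher and 4 lower on day 6, beside 2.85% and 21.6% of all genes. On day 9, 9 were lower, beside 33.1% of all genes, and the list median moved from -0.47 to -1.11. Etv5, a factor of the PEA3 family, read 7.54, 8.28, 6.93 and 6.09 and was 2.73-fold lower on day 9, with its high arrays on days 0 and 3 as in Spry2. Its relative Etv4 was 1.99-fold lower, just short of 2-fold, on day 9 in its brightest probe set. Its other probe set read 6.84 on day 0 and 4.61 on day 6, a difference of -2.22. The brightest bacterial control read 4.51 on day 6, so this size is not exact. On day 9 the probe set was below that control and has no exact difference there either. Ptgs2, which encodes the prostaglandin enzyme COX-2, read 12.06, 10.94, 10.15 and 10.34 and was 3.30-fold lower on day 9. Phlda1 was 2.18-fold higher on day 6 and at 0.64 on day 9, and under spike-in centring it was at 0.74 on day 6, short of 2-fold.

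**Figure D5:**
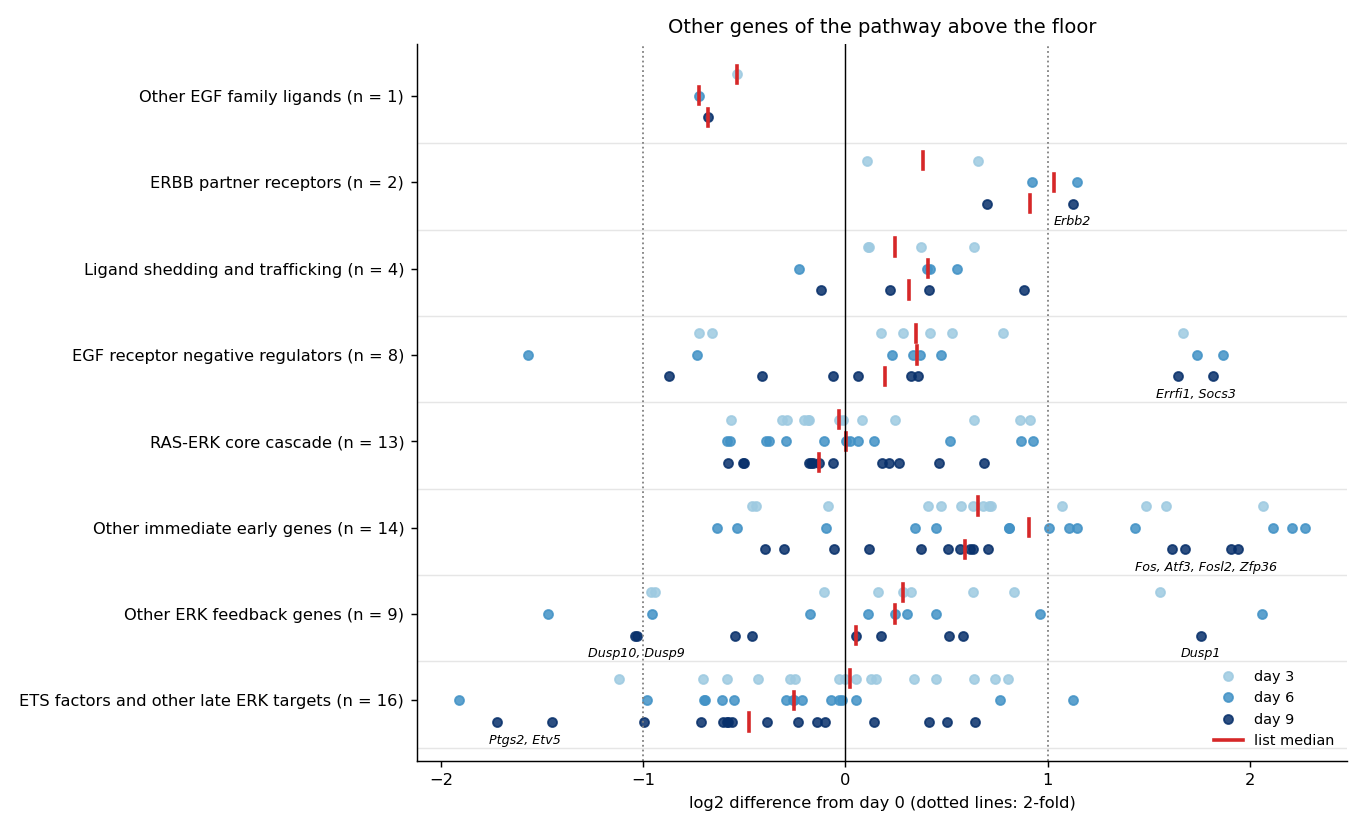
Log2 difference from day 0 (x axis) of each other pathway gene above the filter (points, 1 row of points per day) in 8 lists (y axis, with the number of genes), with list medians as red bars, dotted lines at 2-fold and the genes 2-fold apart on day 9 named. Immediate early genes lie mostly to the right on each day, with medians of 0.66, 0.91 and 0.59, and the core cascade genes lie inside the 2-fold lines, both before any centring on the spike-ins.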

How the data were processed

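Total RNA (500 ng) of 1 culture day per array was labelled by a 3' in vitro transcription method and hybridised to Affymetrix Rat Genome arrays, per the labels. The authors deposited log2 probe set values made with RMA, per the submitters' processing notes. RMA corrects background, gives all arrays nearly the same distribution and summarises probes, so it cannot show whether cells held more or less RNA altogether. Program and settings: not given in the sources used here. From their range, the values were taken as base 2 logs. Of 31099 probe sets, 20832 had 1 gene symbol, 436 several and 9831 none.

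Each gene was read from its brightest probe set (highest 4-array mean). It was tested by size alone, at 2-fold, if it reached a log2 value of 6 on any array. Background was read from 27 bacterial control probe sets, and the 18 spike-in probe sets were used for 1 alternative. The number of arrays limits the precision. The scripts were checked on simulated data. Alternatives were other floors (none, 5 and 8), probe set rules, scalings and thresholds (1.5-fold and 3-fold). The 10 genes, the lists and the alternatives were chosen with earlier results of these data known. Named genes were the 10 with every probe set, in each list the 3 largest day 9 differences and any gene 2-fold apart from day 0, and the genes nearest in pattern. In 1 list of 16 housekeeping genes, used for scaling, 12 were measured and 0 were higher; 2 were lower on day 9, with a median of -0.18. Python 3.11.15, numpy 2.4.6, pandas 2.3.3 and matplotlib 3.10.9 were used.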

Additional observations from a re-analysis of the deposited data

How the results depend on the processing

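The 10 counts of genes higher or lower were recomputed under 12 alternatives, and 102 of 120 values stayed within 1.5 times. At a threshold of 3-fold, 0 were higher and 0 lower on day 3 and on day 6, 2 were higher and 1 lower on day 9, and 0 were higher and 0 lower from day 3 to day 6. At 1.5-fold, 1 was lower from day 6 to day 9. With arrays centred on the spike-ins, 2 were higher on day 6 and 2 on day 9, 0 were higher from day 3 to day 6, and 1 was lower from day 6 to day 9. With arrays centred on the median gene or on housekeeping genes, 1 was lower on day 6 and 0 were lower from day 3 to day 6, and with a further quantile normalization 1 was lower on day 6. The mean over probe sets, unmarked probe sets, other floors and raising dim values to the floor moved no count by over 1.5 times. Dropping or lowering the floor, or raising dim values to it, could not move any count. The lowest brightest probe set value of the 10 genes was 6.57 (Ereg, day 0), above the floor of 6. The probe set rules could move only genes with several probe sets, here Egfr, Tgfa and Dusp6. The 102 values that stayed include those that could not move, so they are not a measure of robustness. No called difference of the 10 genes changed sign under any alternative run. The lower genes were 52.9% of all genes called on day 9, and 94.4% with spike-in centring and 32.9% with housekeeping centring. On day 6 they were 58.5%, 88.3% and 28.6%, and on day 3 33.3%, 51.5% and 19.2%. No paired analysis was possible because each day has 1 array. Signal limits 1 Egfr probe set, which lay at the level of the bacterial controls.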

Other observations

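Outside the comparisons above, some pathway genes depended on the probe set. For Nrg1, the neuregulin gene, the 4 probe sets that reached a log2 value of 6 were on day 9 at -0.68, -0.09, -1.25 and -1.50 against day 0, and on day 6 at -0.73, 0.02, -1.15 and -1.98. A second probe set of Fosl2 was 1.56 higher on day 9, beside 1.91 in the brightest. The other probe sets of Fos, Dusp1 and Etv5 never reached a value of 6.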
